A study of Mus musculus with 13 samples.

Results

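The mitochondrial genome of the mouse carries 7 genes for subunits of complex I, the NADH dehydrogenase at the start of the electron transport chain. These are mt-Nd1, mt-Nd2, mt-Nd3, mt-Nd4, mt-Nd4l, mt-Nd5 and mt-Nd6. All 7 had a row among the 21868 genes in the deposited table of normalized counts from gastrocnemius muscle, and they were taken by symbol, without use of any measured value. They make up 7 of the 13 protein genes of the mitochondrial genome. All 7 were among the 12303 genes tested, those with a mean normalized count of at least 10 over all mice.

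RNA-seq was carried out on gastrocnemius, a calf muscle, from 13 male C57BL/6N mice that were 7 weeks old at the start. All of the mice had been made obese on a diet with 60 kcal% of its energy as fat for 15 to 17 weeks and had then been switched to standard chow. Treatment followed for 3 weeks. The vehicle group (5 mice, numbered 1 to 5) was given phosphate-buffered saline. The semaglutide group (5 mice, numbered 13 to 17) was given semaglutide, a glucagon-like peptide-1 receptor agonist that lowers food intake, intraperitoneally at 30 nM/kg/day. The semaglutide + ketone ester group (3 mice, numbered 19, 21 and 22) received the same dose together with a ketone ester, which raises circulating β-hydroxybutyrate, at 0.114 g/mL in the drinking water. By the labels, the vehicle and semaglutide groups also had a placebo, of a kind not given in the sources used here, and the semaglutide + ketone ester group carried no placebo label. No group was given the ketone ester alone, and no lean or untreated group was analysed here. Each sample was the muscle of a separate mouse and carried the same batch label.

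Complex I takes electrons from NADH, passes them to ubiquinone and pumps protons across the inner mitochondrial membrane, which drives ATP synthesis. Its peripheral arm is built entirely from nuclear-encoded subunits, while the core of its membrane arm is encoded in the mitochondrion. ND2, ND4 and ND5 are the large antiporter-like subunits of the proton-pumping arm. ND1 forms much of the ubiquinone-binding site where the arms meet. ND3, ND4L and ND6 are small membrane subunits that lie close to ND1, and a loop of ND3 moves when the enzyme switches between its active and deactive states. In muscle, many mitochondrial genomes are present in each fibre. Both strands are transcribed as long precursors, which are cut at the transfer RNAs between the genes.

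On GRCm38 (mm10), the GENCODE annotation placed mt-Nd1 at chrM:2751-3707, mt-Nd2 at chrM:3914-4951, mt-Nd3 at chrM:9459-9806, mt-Nd4l at chrM:9877-10173, mt-Nd4 at chrM:10167-11544 and mt-Nd5 at chrM:11742-13565, all on the plus strand. The gene mt-Nd6 lay at chrM:13552-14070 on the minus strand, and it was the only member on that strand. None of the 7 genes has an intron in the annotation. A transfer RNA gene flanked each of them at one end or both. The first 30 bases of each gene are shown 5′ to 3′ from the GENCODE transcripts, with the start codon in capitals, because the members begin with different codons.

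mt-Nd1: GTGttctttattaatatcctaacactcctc

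mt-Nd2: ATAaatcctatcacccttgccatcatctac

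mt-Nd3: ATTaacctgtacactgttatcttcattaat

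mt-Nd4: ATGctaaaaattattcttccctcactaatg

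mt-Nd4l: ATGccatctaccttcttcaacctcaccata

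mt-Nd5: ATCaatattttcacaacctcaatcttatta

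mt-Nd6: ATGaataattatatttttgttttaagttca

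Only mt-Nd4, mt-Nd4l and mt-Nd6 begin with ATG. The remaining 4 genes begin with GTG, ATA, ATT or ATC, which mitochondrial ribosomes also read as starts. The strand of mt-Nd6 was visible in its base composition. Its sense strand held 28.1% G and 5.97% C, whereas the other 6 members held between 8.00% and 11.6% G and between 22.1% and 30.0% C.

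In 2 places, members overlap one another, and both overlaps are shown because reads there belong to more than 1 gene. The genes mt-Nd4l and mt-Nd4 share 7 bases in different reading frames and are known to be carried on a single messenger RNA. The shared bases are in capitals in the stretch chrM:10134-10206, on the plus strand.

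mt-Nd4l/mt-Nd4: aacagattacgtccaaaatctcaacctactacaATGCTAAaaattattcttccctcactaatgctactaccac

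The ends of mt-Nd5 and mt-Nd6 share 14 bases on opposite strands. These are in capitals in the stretch chrM:13526-13591, written on the strand of mt-Nd5.

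mt-Nd5/mt-Nd6: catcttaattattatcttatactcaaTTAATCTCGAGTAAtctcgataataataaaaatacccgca

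The libraries were strand-specific, but whether strand was used in counting was not given in the sources used here. If it was not, reads from the transcript antisense to mt-Nd6, which is part of the plus-strand precursor, could not be told apart from mt-Nd6 itself.

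Libraries held between 15319471 and 23498162 reads counted on genes. The lowest count of reads was 276 for mt-Nd6, in semaglutide mouse 13, and 3253 for mt-Nd3, in semaglutide + ketone ester mouse 21, while the 4 most abundant members had at least 181786 reads in each mouse. Over all genes tested, semaglutide mouse 13 stood apart from the other mice of its group on the first principal component, with a score of -9.12 against 31.8 to 52.5 for the other 4 and -24.5 to -12.9 for vehicle-treated mice. Its mt-Nd values lay with those of its group, as given below, and counts of members are given with and without it.

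Members differed in level. The libraries captured polyadenylated RNA, so that amount and tail length cannot be told apart in these levels, that of mt-Nd6 included. To compare genes of different length, the normalized count was divided by the length of the gene in kilobases (normalized count per kb). In vehicle-treated mice mt-Nd1 was highest at 432881 ± 16165 per kb (SD, n = 5), followed by mt-Nd4 at 349710 ± 12893 and mt-Nd2 at 334895 ± 11877. The next was mt-Nd5 at 180563 ± 12243, then mt-Nd4l at 73030 ± 14824, mt-Nd3 at 29784 ± 30002 and mt-Nd6 at 1373 ± 282 (SD, n = 5 each). Ranges over the 5 mice overlapped between mt-Nd4 and mt-Nd2 and between mt-Nd4l and mt-Nd3, and those of all other neighbours in this order were separate. The step from mt-Nd3 to mt-Nd6 was 21.7-fold on this scale, and 11.2-fold without vehicle mouse 3, which had the highest mt-Nd3 value of its group. By normalized count, without division by length, mt-Nd4 had rank 5 among all genes in the table under vehicle, and mt-Nd1, mt-Nd2 and mt-Nd5 had ranks 7, 9 and 10. Under semaglutide their ranks were 9, 10, 13 and 14 for mt-Nd4, mt-Nd1, mt-Nd2 and mt-Nd5.

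**Figure D1:**
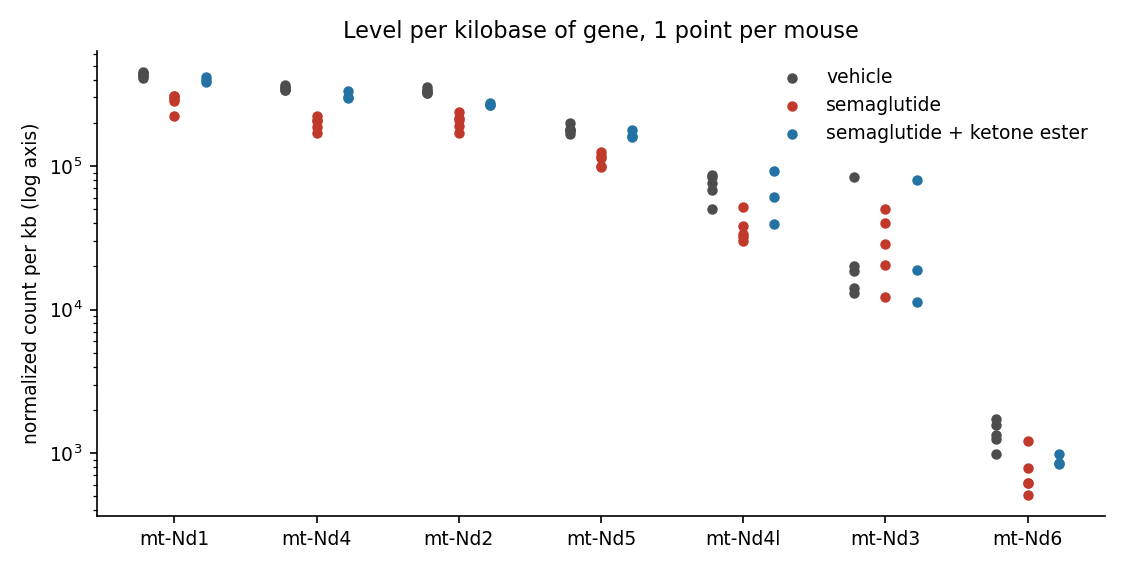
Normalized count per kilobase of gene (log axis) for each mt-Nd gene, with 1 point per mouse and colours for the 3 groups. The genes are ordered by their mean in vehicle-treated mice, from mt-Nd1 at 432881 per kb to mt-Nd6 at 1373 per kb. The widest scatter between mice is that of mt-Nd3.

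Semaglutide was compared with vehicle first. Of the 7 genes, 6 were lower in semaglutide-treated mice and mt-Nd3 did not pass the test. Means of the 6 genes stood at between 50.8% and 65.4% of the vehicle mean. The test was limma on log2(normalized count + 1) with all 3 groups in 1 model, with Benjamini-Hochberg adjustment over the 12303 genes and a threshold of 0.05 for the adjusted p. By this rule 13.2% of all genes tested were lower and 25.1% differed in either direction. The median log2 fold change of the 7 members was -0.72, beside -0.0029 for all genes tested. Without mouse 13 the count was again 6. Because the tissue is bulk muscle, fewer mitochondria-rich fibres or cells and less mitochondrial RNA per cell cannot be told apart.

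Groups did not overlap for mt-Nd1, mt-Nd2, mt-Nd4 and mt-Nd5, as was the case for 7.45% of all genes tested in this direction. The antiporter-like subunits are described first. For mt-Nd4, vehicle mice 1 to 5 had 484129, 466101, 465168, 508646 and 485461 normalized counts, and semaglutide mice 13 to 17 had 257357, 306010, 288086, 232566 and 282259. In the semaglutide + ketone ester group, mice 19, 21 and 22 had 406893, 417947 and 458115 normalized counts of mt-Nd4. No semaglutide-treated mouse reached the lowest mouse of either of the other groups, and the 3 semaglutide + ketone ester-treated mice lay just under the vehicle range. The log2 fold change under semaglutide was -0.82 (standard error 0.084, adjusted p = 0.00013, limma), which leaves 56.7% of the vehicle mean.

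For mt-Nd2, vehicle mice had 346181, 337104, 337344, 367177 and 350300 normalized counts. Semaglutide mice had 197467, 245601, 216182, 176530 and 224385, and semaglutide + ketone ester mice had 274627, 273945 and 286321. The 3 groups were fully separate for this gene, with the semaglutide + ketone ester mice in between. For mt-Nd2 the log2 fold change under semaglutide was -0.72 (adjusted p = 0.00030, standard error 0.088, limma), or 61.0% of the vehicle mean.

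The largest of the family, mt-Nd5, had 303763, 321351, 327269, 365009 and 329343 normalized counts under vehicle. It had 180967, 227607, 212450, 178187 and 207362 under semaglutide, and 291718, 294931 and 324069 under semaglutide + ketone ester. All 5 semaglutide-treated mice were below all other mice, while the semaglutide + ketone ester and vehicle ranges overlapped. The difference from vehicle under semaglutide was -0.71 on the log2 scale (standard error 0.088, adjusted p = 0.00032, limma).

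The gene for the ubiquinone-site subunit, mt-Nd1, had 404657, 394376, 414145, 432977 and 425181 normalized counts under vehicle. Under semaglutide it had 281863, 293929, 291934, 214476 and 272404, and under semaglutide + ketone ester 369152, 380911 and 399838. Again every semaglutide-treated mouse was below every other mouse, and mouse 16 lay well below the other 4 of its group. The log2 fold change was -0.62 (standard error 0.091, adjusted p = 0.00087, limma), and the mean of 65.4% of vehicle was the highest among the 6 lower genes.

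**Figure D2:**
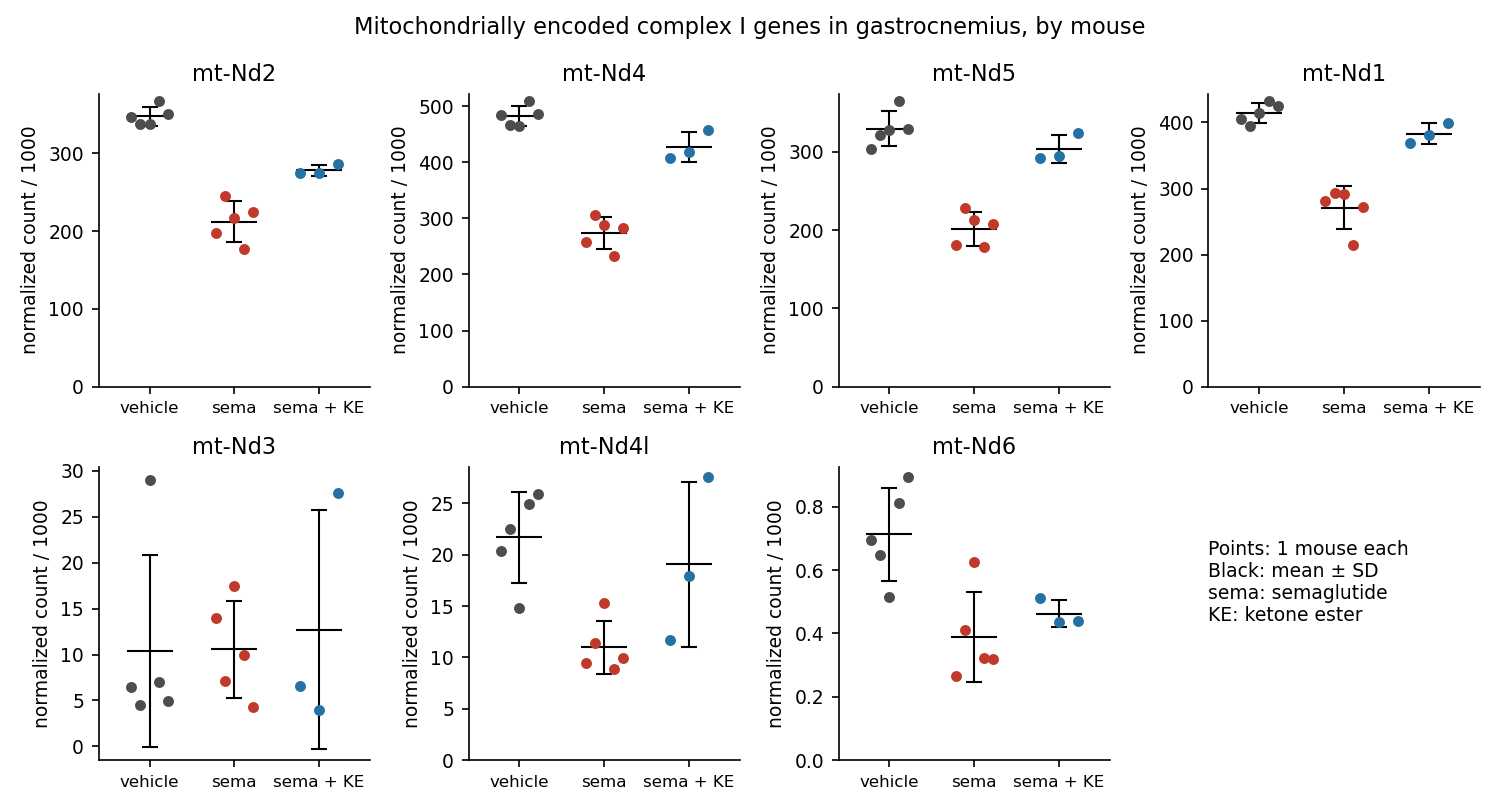
Normalized counts (linear axis) of the 7 mt-Nd genes, with 1 point per mouse and the mean ± SD of each group in black (5, 5 and 3 mice). For mt-Nd1, mt-Nd2, mt-Nd4 and mt-Nd5 all semaglutide-treated mice lie below all other mice, whereas the groups overlap for mt-Nd3, mt-Nd4l and mt-Nd6.

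The small subunits mt-Nd4l and mt-Nd6 were lower as well, with more spread between mice. For mt-Nd4l, vehicle mice had 20346, 22543, 14809, 24894 and 25859 normalized counts, and semaglutide mice had 9432, 11425, 15299, 8910 and 9974. Vehicle mouse 3 and semaglutide mouse 15 crossed over, so that the groups overlapped, and the other 4 mice of each group were apart. The log2 fold change was -0.98 (standard error 0.23, adjusted p = 0.011, limma), with a mean of 50.8% of vehicle.

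For mt-Nd6, the single minus-strand member, vehicle mice had 693, 649, 515, 812 and 893 normalized counts and semaglutide mice had 267, 411, 625, 321 and 320. The same 2 mice, vehicle 3 and semaglutide 15, lay across from the rest of their groups. The log2 fold change was -0.91 (standard error 0.21, adjusted p = 0.010, limma), or 54.6% of the vehicle mean.

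The exception was mt-Nd3. Vehicle mice had 6436, 4513, 28947, 7042 and 4887 normalized counts, semaglutide mice had 13967, 7084, 17456, 9966 and 4255, and semaglutide + ketone ester mice had 6563, 3929 and 27628. Vehicle mouse 3 and semaglutide + ketone ester mouse 22 stood far above the other mice of their groups, and all 3 groups overlapped. Its log2 fold change under semaglutide was 0.27 (standard error 0.62, 95% confidence interval -1.07 to 1.60, adjusted p = 0.78, limma), an interval that includes the changes of the other 6 members. Without vehicle mouse 3 the value was 0.74, and without semaglutide mouse 15 it was 0.045.

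Next, semaglutide + ketone ester was compared with semaglutide alone. The 4 abundant members, mt-Nd1, mt-Nd2, mt-Nd4 and mt-Nd5, were higher with the ketone ester, and the other 3 did not pass the test. By the same rule 9.09% of all genes tested were higher and 18.4% differed in either direction. Groups did not overlap for the same 4 members, as was the case for 9.96% of all genes tested in this direction. The median log2 fold change of the 7 members was 0.51, beside -0.00024 for all genes tested.

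The difference was 0.65 for mt-Nd4 on the log2 scale (standard error 0.097, adjusted p = 0.0021, limma) and 0.60 for mt-Nd5 (standard error 0.10, adjusted p = 0.0034, limma). It was 0.51 for mt-Nd1 (standard error 0.10, adjusted p = 0.0077, limma) and 0.40 for mt-Nd2 (standard error 0.10, adjusted p = 0.019, limma). For mt-Nd4l, the semaglutide + ketone ester mice 19, 21 and 22 had 11665, 17923 and 27571 normalized counts, the widest spread of any member but mt-Nd3 in this group. Mouse 19 lay within the semaglutide range and mouse 22 above the vehicle range. The log2 fold change of mt-Nd4l was 0.73 (95% confidence interval 0.15 to 1.31, adjusted p = 0.074, limma). For mt-Nd6, these mice had 511, 437 and 440 normalized counts, which lay within the range of semaglutide-treated mice, with a log2 fold change of 0.31 (95% confidence interval -0.22 to 0.85, adjusted p = 0.40, limma). For mt-Nd3 the value was -0.07 (95% confidence interval -1.62 to 1.47, adjusted p = 0.96, limma).

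The number of members higher with the ketone ester was sensitive to the model. It was 2, mt-Nd4 and mt-Nd5, when limma was given a mean-variance trend or only the 2 groups compared, 0 under quantile normalization, and 5 with edgeR or DESeq2 on the recovered reads, which added mt-Nd4l. Leaving out mouse 13 gave 4. Leaving out mouse 21 or 22 of the semaglutide + ketone ester group gave 3, without mt-Nd2 in each case, and leaving out mouse 19 gave 5. Since the same semaglutide-treated mice enter this comparison and the first one, opposite signs in the 2 comparisons are not independent of each other.

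**Figure D3:**
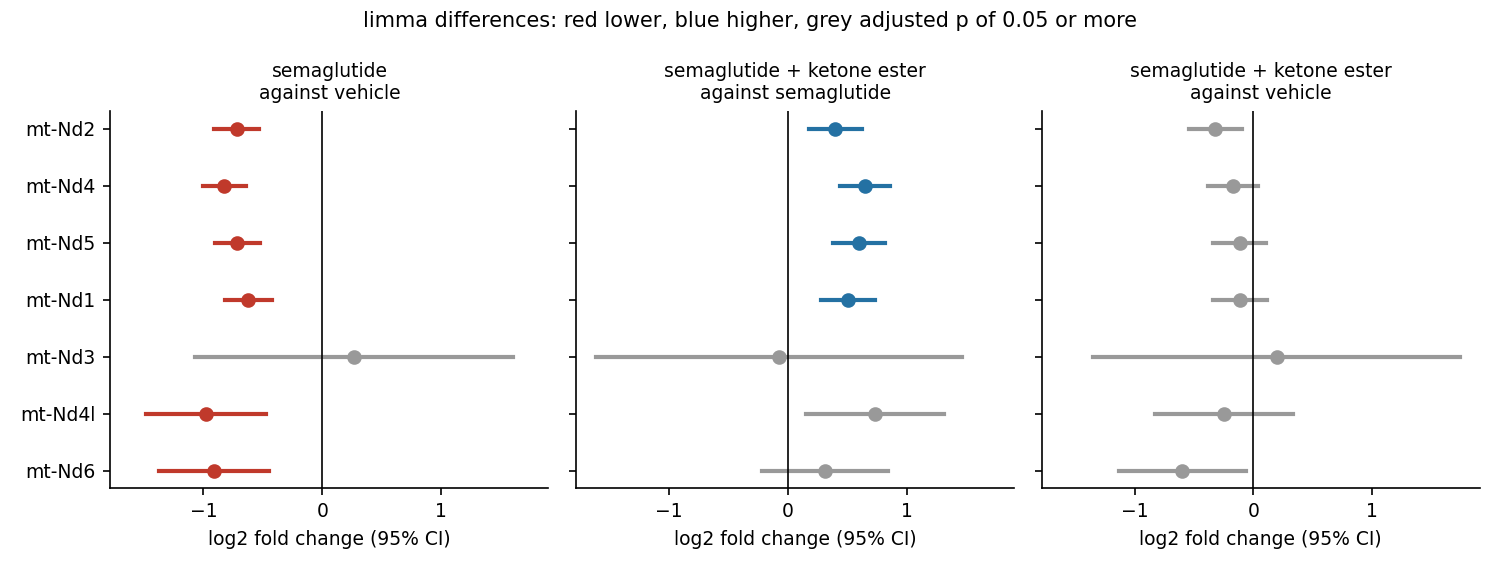
Log2 fold change with 95% confidence interval of each mt-Nd gene in the 3 comparisons, from limma with 13 mice. Red points are lower and blue points higher with an adjusted p under 0.05, grey points are not, and the intervals of mt-Nd3 are the widest in each panel.

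Semaglutide + ketone ester was then compared with vehicle. None of the 7 members passed the test in limma, edgeR or DESeq2, where 0.236% of all genes tested passed by limma in either direction. At an unadjusted p under 0.05 there were 2 members, mt-Nd2 and mt-Nd6, beside 10.5% of all genes tested. Compared with vehicle, mt-Nd2 had a log2 fold change of -0.32 (95% confidence interval -0.54 to -0.10, adjusted p = 0.28, limma) and stood at 80.1% of the vehicle mean. For mt-Nd6 the value was -0.60 (95% confidence interval -1.13 to -0.07, adjusted p = 0.41, limma), at 65.0% of vehicle. All 3 semaglutide + ketone ester mice lay below all vehicle mice for mt-Nd2, mt-Nd4 and mt-Nd6, as was the case for 5.88% of all genes tested in this direction. Intervals of mt-Nd1, from -0.34 to 0.12, and of mt-Nd5, from -0.34 to 0.10, were narrower than those of the small subunits. Among the 6 members other than mt-Nd3, the group mean was between 65.0% and 92.5% of vehicle, and mt-Nd3 stood at 123%. The mt-Nd3 value rested on single mice, since it was 222% without vehicle mouse 3 and 50.6% without semaglutide + ketone ester mouse 22.

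Across all 3 groups, a criterion after the study's methods was also applied. The methods name a one-way analysis of variance with p under 0.05 and a fold difference of at least 1.5. Running it here on untransformed normalized counts, with no adjustment of p and with the fold taken between the highest and lowest group means, was a choice made for these values. It was met by the same 6 members that were lower under semaglutide, and by 16.1% of all genes tested. The ratio of highest to lowest mean ran from 1.53 for mt-Nd1 to 1.97 for mt-Nd4l. When each library was scaled to the same total over all genes, 3 members met it.

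Reads on the 7 genes together made up 7.79% to 9.00% of each vehicle library. Their share was 5.24% to 6.27% under semaglutide and 6.83% to 7.38% under semaglutide + ketone ester, so that the 3 groups did not overlap. Within the mitochondrial genome the balance differed less, although all semaglutide + ketone ester mice lay below all semaglutide-treated mice. The 7 mt-Nd genes held 43.6% to 45.6% of reads on its 13 protein genes under vehicle, 44.8% to 46.7% under semaglutide and 43.4% to 44.1% under semaglutide + ketone ester.

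The other 6 protein genes of the mitochondrial genome were all lower under semaglutide than vehicle and all higher under semaglutide + ketone ester than semaglutide in limma. They encode cytochrome b of complex III (mt-Cytb), the core subunits of complex IV (mt-Co1, mt-Co2 and mt-Co3) and the membrane subunits of ATP synthase (mt-Atp6 and mt-Atp8). Their means under semaglutide stood at 57.1% of vehicle for mt-Cytb, 57.9% for mt-Co1, 64.2% for mt-Co2, 57.5% for mt-Co3, 66.7% for mt-Atp6 and 65.0% for mt-Atp8. Under semaglutide + ketone ester they stood at 98.6%, 89.9%, 102%, 88.5%, 99.1% and 85.3% of vehicle, in the same order. For mt-Nd1, mt-Nd2, mt-Nd4 and mt-Nd5 the means were 56.7% to 65.4% of vehicle under semaglutide and 80.1% to 92.5% under semaglutide + ketone ester.

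Neighbours on the mitochondrial genome were set against each other within each mouse, which removes the scaling of the library. The ratio of mt-Nd6 to mt-Nd5, genes on opposite strands, was 0.157% to 0.271% under vehicle, 0.147% to 0.294% under semaglutide and 0.136% to 0.175% under semaglutide + ketone ester. Exact two-sided permutation tests were run on the log2 ratios, 6 in all. Semaglutide + ketone ester differed from vehicle by -0.48 (exact p = 0.071, Benjamini-Hochberg adjusted p = 0.43). Semaglutide differed from vehicle by -0.20 (exact p = 0.37, adjusted 0.56), and the difference of semaglutide + ketone ester from semaglutide was -0.28 (exact p = 0.21, adjusted 0.56).

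The ratio of mt-Nd4l to mt-Nd4, carried on 1 messenger RNA, was 3.18% to 5.33% under vehicle, 3.53% to 5.31% under semaglutide and 2.87% to 6.02% under semaglutide + ketone ester. Its log2 differences were -0.16, 0.081 and -0.074 for semaglutide against vehicle, semaglutide + ketone ester against semaglutide and semaglutide + ketone ester against vehicle (exact permutation p = 0.37, 0.82 and 0.86, with adjusted p of 0.56, 0.86 and 0.86). None of the 6 tests passed the threshold. The smallest two-sided p that they allow is 0.0079 for 5 against 5 mice and 0.036 for 3 against 5.

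Members differed in how closely they followed each other over the 13 mice. Pearson's r of log2 values was 0.95 to 0.99 for the 6 pairs among mt-Nd1, mt-Nd2, mt-Nd4 and mt-Nd5. It was 0.74 to 0.86 for mt-Nd4l and mt-Nd6 with each of these 4 genes. The gene mt-Nd3 had r between -0.39 and -0.03 with the 12 other protein genes of the mitochondrial genome. All of these points share the same libraries and group differences, so that they are given as a description.

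Spread within groups separated mt-Nd3 from the rest of the family. Over the vehicle and semaglutide groups only, its standard deviation within groups was 0.96 on the log2 scale. The value was 0.12 to 0.14 for mt-Nd1, mt-Nd2, mt-Nd4 and mt-Nd5, 0.32 for mt-Nd4l and 0.40 for mt-Nd6. By this measure, 304 of the 12303 genes tested had a larger spread than mt-Nd3. Among the 230 genes within 2-fold of its mean level, 4 had a larger spread, and their median was 0.21. For mt-Nd3 there were 3253 to 23394 reads per mouse, and the source of its spread was not tested. The high mice for mt-Nd3, vehicle mouse 3 and semaglutide + ketone ester mouse 22, did not stand apart for mt-Nd1, mt-Nd2, mt-Nd4 and mt-Nd5. Vehicle mouse 3 lay within or just under the range of the other 4 for these genes, and mouse 22 was the highest of its 3 mice, within 10% of the next.

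**Figure D4:**
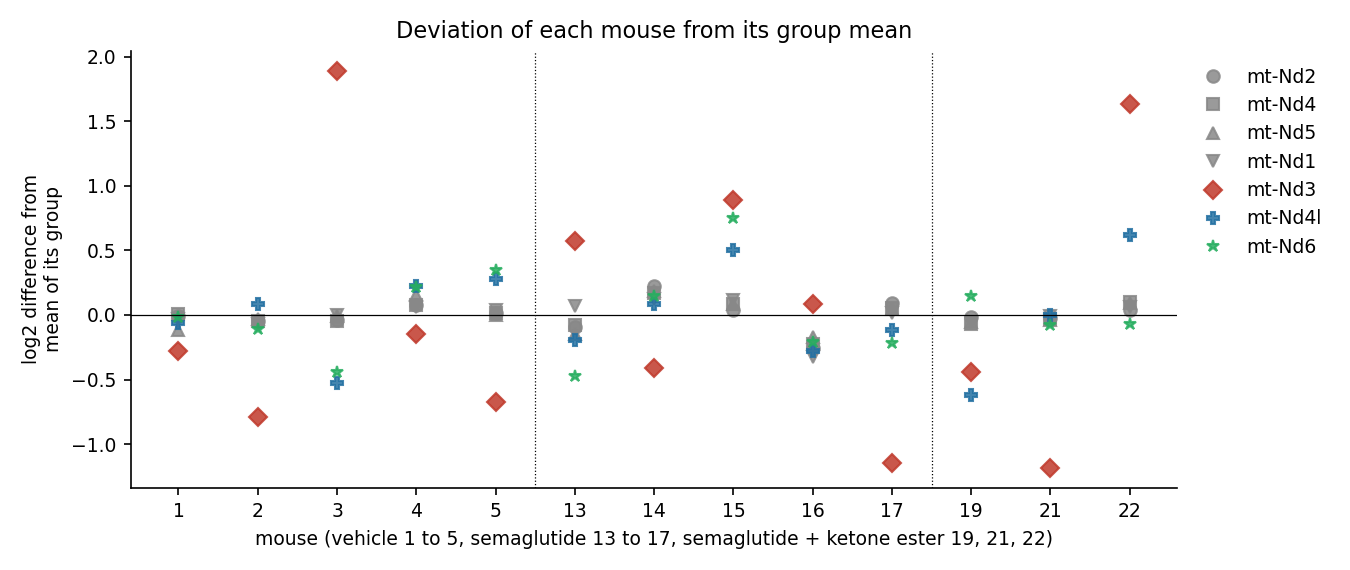
Difference of each mouse from the mean of its own group on the log2 scale, for the 7 mt-Nd genes, with dotted lines between the groups. The red diamonds of mt-Nd3 lie farthest from 0 in vehicle mouse 3 and semaglutide + ketone ester mouse 22, while the grey points of mt-Nd1, mt-Nd2, mt-Nd4 and mt-Nd5 stay near 0, in mouse 16 below it.

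Because of this spread, the first 240 bases of mt-Nd3 are shown, on the plus strand of chrM:9459-9698, with the start codon in capitals.

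mt-Nd3: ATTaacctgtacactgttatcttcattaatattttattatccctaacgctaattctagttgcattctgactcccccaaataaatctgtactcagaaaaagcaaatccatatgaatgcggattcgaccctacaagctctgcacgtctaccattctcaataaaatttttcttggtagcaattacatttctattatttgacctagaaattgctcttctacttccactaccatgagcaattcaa

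Copies of mitochondrial sequence lie in the nuclear genome, and reads that match both places can be lost or split in counting. Every stretch of 59 bases, the length of a read, was searched for on both strands in all other GENCODE transcripts. For mt-Nd3, 97.9% of stretches had an exact match in the pseudogene Gm28438 at chr1:24612775-24613119, and for mt-Nd4l 98.7% had one in Gm10222 at chr1:24612407-24612700. For mt-Nd4 the share was 62.0%, in Gm28439 at chr1:24611535-24612410. It was 7.24% for mt-Nd2 and 4.70% for mt-Nd5, and no stretch of mt-Nd1 or mt-Nd6 had a match. None of these pseudogenes had a row in the table. Among the other 6 mitochondrial protein genes, the share was 100% for mt-Co2, 99.9% for mt-Co3, 99.5% for mt-Atp6 and 46.9% for mt-Co1, and mt-Cytb and mt-Atp8 had no match. Pooled within all 3 groups, the SD on the log2 scale was 1.08 for mt-Nd3, 0.40 for mt-Nd4l, 0.36 for mt-Nd6 and 0.30 for mt-Co2. It was between 0.11 and 0.16 for the other 9 genes. The part of shared sequence in the counts was not tested. The levels of mt-Nd3, mt-Nd4l and, with 62.0% of stretches shared, mt-Nd4 are uncertain for this reason.

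The nuclear genes for complex I were mostly lower under semaglutide as well. Of 36 nuclear subunit genes tested, 30 were lower under semaglutide than vehicle, beside 13.2% of all genes tested. None of the 36 was higher, and their median log2 fold change was -0.45. The 3 with the lowest p were Ndufs4 (-0.62, adjusted p = 0.00053), Ndufa13 (-0.67, adjusted p = 0.00084) and Ndufs1 (-0.85, adjusted p = 0.0010, all limma), where NDUFS1 is the iron-sulphur subunit that carries electrons in the peripheral arm and NDUFS4 stabilises that arm. Compared with semaglutide, 32 of the 36 were higher under semaglutide + ketone ester, beside 9.09% of all genes tested. The median of the 36 was 0.55. Compared with vehicle none passed the test, and 3 of the 36 had a negative change, with a median of 0.10, where the median of the 7 mt-Nd genes was -0.17.

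Reads of the mt-Nd genes were therefore also set against those of the nuclear subunits in the same mouse. The ratio was 15.0 to 16.5 under vehicle with a median of 16.2, 11.2 to 14.4 under semaglutide with a median of 13.8, and 12.1 to 14.0 under semaglutide + ketone ester with a median of 13.3. Every treated mouse lay below every vehicle mouse, and the treated groups overlapped. The lowest ratio was that of semaglutide mouse 13. No test is given for this score over the members.

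**Figure D5:**
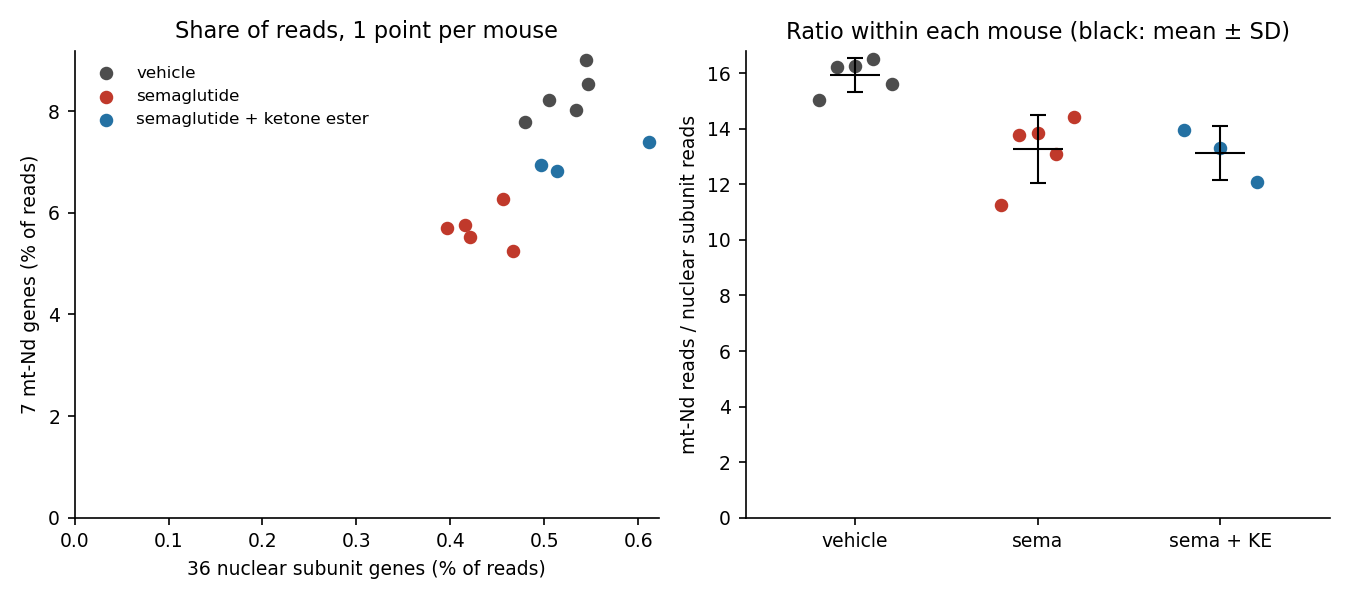
Left, share of reads on the 7 mt-Nd genes against the share on 36 nuclear complex I subunit genes, both in percent with 1 point per mouse. Right, the ratio of the 2 within each mouse with mean ± SD in black, which is 15.0 to 16.5 in vehicle-treated mice and 11.2 to 14.4 in mice of both other groups.

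Assembly factors build complex I but are not part of it. Over the 17 tested, the median log2 fold change under semaglutide was -0.23. Of these, 3 were lower, beside 13.2% of all genes tested, and none was higher. They were Ndufaf1 (-0.71, adjusted p = 0.0011), Tmem126b (-0.60, adjusted p = 0.0048) and Ndufaf5 (-0.64, adjusted p = 0.025, all limma), of which NDUFAF1 and TMEM126B belong to the complex that assembles the membrane arm. With the ketone ester, 4 of the 17 were higher than under semaglutide, beside 9.09% of all genes tested.

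Genes that transcribe and copy the mitochondrial genome were mostly not called. Of the 8 transcription genes tested, 2 were lower under semaglutide, beside 13.2% of all genes tested. Mterf2, a member of the termination factor family, fell from a mean of 188 to 89.3 normalized counts (log2 fold change -1.11, adjusted p = 0.0022, limma). Tfam, which packages mitochondrial DNA and starts its transcription, had means of 667 and 551 (log2 fold change -0.27, adjusted p = 0.032, limma). The other 6 did not pass, with log2 fold changes of 0.24 for the polymerase Polrmt, 0.09 for the initiation factor Tfb2m, -0.34 for the elongation factor Tefm, 0.22 for Mterf3, 0.63 for Mterf1a and 0.02 for Mterf4. Under semaglutide + ketone ester, Mterf2 was higher than under semaglutide (log2 fold change 1.26, adjusted p = 0.0040, limma), and the 7 others did not pass. None of the 10 replication genes passed limma in any comparison, and their median was 0.05 between semaglutide and vehicle. Those with the lowest p were Mgme1 (0.27, adjusted p = 0.063), Polg, the mitochondrial DNA polymerase (0.23, adjusted p = 0.073), and Ssbp1, which coats single-stranded mitochondrial DNA (0.18, adjusted p = 0.13).

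Of 21 genes for processing and stability of mitochondrial RNA, 1 was lower and 2 were higher under semaglutide. The median over the 21 was -0.12, and 25.1% of all genes tested differed in either direction. Ptcd2 was higher (0.33, adjusted p = 0.017), Ptcd3 was lower (-0.41, adjusted p = 0.018) and Elac2, which cuts precursors at the 3′ end of transfer RNAs, was higher (0.45, adjusted p = 0.026, all limma). Of 11 genes for mitochondrial translation, 6 were lower under semaglutide, beside 13.2% of all genes tested, and the median was -0.35. With the ketone ester 6 were higher than under semaglutide, beside 9.09% of all genes tested. The next values are again those of semaglutide against vehicle. The lowest p-values were those of Gfm1, an elongation factor (-0.48, adjusted p = 0.0044), Taco1, a translational activator of mt-Co1 (-1.02, adjusted p = 0.0059), and Tsfm (-0.46, adjusted p = 0.023). Among 11 genes of mitochondrial biogenesis and content, 4 were lower and 2 higher under semaglutide, beside 25.1% of all genes tested in either direction. The median of the 11 was -0.10. Vdac1, a channel of the outer membrane, was lower (-0.68, adjusted p = 0.00023), as was citrate synthase, Cs (-0.47, adjusted p = 0.0033), while Nrf1, a transcription factor for nuclear genes of mitochondria, was higher (0.65, adjusted p = 0.0070, all limma). With the ketone ester 2 of the 11 were lower and 3 higher than under semaglutide, beside 18.4% of all genes tested in either direction.

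The genes whose pattern over the 13 mice was most like the mean of the 7 members, among tested genes outside the mitochondrial genome, were Pla2g16, Ldhd, Fuom, Hmgb3 and Mcee, with Pearson's r of 0.95, 0.94, 0.92, 0.92 and 0.92. All 5 had their lowest group mean under semaglutide. Ldhd, a mitochondrial D-lactate dehydrogenase, had mean normalized counts of 875 under vehicle, 474 under semaglutide and 850 under semaglutide + ketone ester. These r values describe 13 libraries that share group differences, and carry no test.

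Markers of muscle were abundant in all mice, and markers of fibre type and of other cells also differed between groups. Myoglobin, Mb, the oxygen store of oxidative fibres, was lower under semaglutide than vehicle (log2 fold change -2.15, adjusted p = 0.00016) and higher with the ketone ester than without it (1.64, adjusted p = 0.0029), while Des was higher and Acta1 lower under semaglutide (all limma). Of 8 genes of slow and oxidative fibres, among them Myh2, the myosin of fast oxidative type IIa fibres, Myl3 was lower under semaglutide (-1.32, adjusted p = 0.015, limma), the other 7 did not pass, and all 8 had a negative change. Their summed level was 42986 to 120278 normalized counts under vehicle, 33835 to 91396 under semaglutide and 66869 to 103632 under semaglutide + ketone ester. Without Myh2 the sum of the other 7 was 9724 to 39595, 8934 to 24967 and 14192 to 26782 in the same order. Of 8 fast-fibre genes, 2 were lower under semaglutide, Myh4 among them (-0.60, adjusted p = 0.037, limma), and Actn3 was higher (0.74, adjusted p = 0.0039, limma). With the ketone ester 5 were higher and 1 lower than under semaglutide, and Mylpf was among the higher (1.38, adjusted p = 0.0060, limma). In that comparison 18.4% of all genes tested differed in either direction.

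Of 6 fibroblast and tendon markers, 4 were lower under semaglutide than vehicle, beside 13.2% of all genes tested, led by Col1a1 (-3.02, adjusted p = 0.00074, limma). With the ketone ester, 2 of the 6 were higher and 1 lower than under semaglutide, where 18.4% of all genes tested differed in either direction. Col1a1 was higher (3.03, adjusted p = 0.0028, limma), while Scx had a mean of 103 normalized counts under semaglutide and 45.5 with the ketone ester. The summed level of the 6 markers was 4586 to 14086 normalized counts under vehicle, 5280 to 7287 under semaglutide and 8053 to 11330 under semaglutide + ketone ester. Of 5 red-cell markers, none passed between semaglutide and vehicle. With the ketone ester 4 were higher than under semaglutide, beside 9.09% of all genes tested. Summed levels of the 5 were 1356 to 2291, 50.5 to 3148 and 2849 to 5558 in the 3 groups. None of the 6 adipocyte, 5 macrophage and 4 Schwann cell markers passed in any comparison by limma. Adipocyte markers spread widely under semaglutide, with summed levels of 1763 to 19452 normalized counts. Those sums were 3344 to 7020 under vehicle and 3753 to 4596 under semaglutide + ketone ester. Of 5 endothelial markers, Kdr was higher with the ketone ester than under semaglutide (0.41, adjusted p = 0.030, limma). Of 3 brown adipocyte markers, 1 could be tested and did not pass. The part of these differences in fibre and cell markers in the lower mt-Nd counts was not tested.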

How the data were processed

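Total RNA from frozen gastrocnemius was made into stranded mRNA libraries, which capture polyadenylated RNA, so that tail length and amount cannot be told apart. The authors aligned paired-end reads of 59 bases to mm10 by DRAGEN and deposited a table of normalized counts for each gene (a signal per gene and mouse), and the submitters' processing notes also name DESeq2. The gene annotation and the treatment of reads with several matches were not given in the sources used here. Dividing each column by its smallest unit gave whole numbers within a tolerance of 0.01 for 100% of values, so that reads were recovered.

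Values were transformed to log2(normalized count + 1) and 12303 genes with a mean of at least 10 were tested with limma 3.58.1 (R 4.3.3), without a trend, with Benjamini-Hochberg adjustment over all of them. Fold changes are on that scale. Within-mouse ratios were compared by exact permutation tests (scipy 1.17.1). edgeR 4.0.16 and DESeq2 1.42.0 on recovered reads, another pseudocount, filter or scaling, sample weights, a trend, fewer groups and leaving out each mouse were alternatives. The limma step was checked on simulated data. Gene positions and sequences came from GENCODE transcripts for GRCm38.

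The members and gene lists were chosen with earlier results of these data known. All 7 members are named, as are all 6 other mitochondrial protein genes and all transcription genes tested. From the other lists the 3 genes with the lowest p between semaglutide and vehicle are named, from the fibre and cell marker lists up to 3 that passed in any comparison, and the 5 genes most like the members. Of the listed genes, Ndufb1 and Coa1 had no row matched here, and Mterf1b, Ucp1 and Elovl3 were below the filter.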

Additional observations from a re-analysis of the deposited data

Results flagged for a closer look

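Groups of 5 mice were examined for a mouse whose gap to its nearest neighbour was large for the range of its group (Dixon's 95% critical value of 0.710 for 5 samples). In all, 38 groups were examined and 5 were marked. Chance alone marks about 1 in 20 such groups. The groups included shares and ratios built from the same members in the same mice, so they are not independent. The number marked can therefore not be weighed against that rate.

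Semaglutide mouse 16 was low for mt-Nd1, at 214476 normalized counts, where the other 4 mice of its group had 272404 to 293929. Without it, the log2 fold change of mt-Nd1 between semaglutide and vehicle was -0.54, and it passed limma. Vehicle mouse 3 was high for mt-Nd3, at 28947 normalized counts beside 4513 to 7042 in the other 4, and mt-Nd3 made up 1.82% of its mt-Nd reads. Semaglutide mouse 15 was high in both within-mouse ratios, with mt-Nd4l at 5.31% of mt-Nd4 and mt-Nd6 at 0.294% of mt-Nd5. The causes were not tested.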

How the results depend on the processing

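Under the alternatives, 6 members were lower in semaglutide-treated than vehicle-treated mice in every case but quantile normalization, which gave 5 and lost mt-Nd1 (-0.20, adjusted p = 0.054, limma). Leaving out each mouse gave 6 throughout. Between semaglutide + ketone ester and semaglutide, 4 members passed, 2 with a mean-variance trend, 2 with only the groups compared and 0 under quantile normalization. By construction that method gives equally ranked genes the same value in every mouse. Equal totals gave 3, and edgeR and DESeq2 gave 5. Leaving out each mouse gave 3 to 5. Between semaglutide + ketone ester and vehicle the count was 0, also without each mouse, and 1 under quantile normalization (mt-Nd2, -0.40, adjusted p = 0.043, limma). The criterion after the study's methods gave 6 members, 3 with equal totals over all genes, and 5 to 6 without each mouse. With equal totals over all genes, the median log2 fold change of all genes was 0.17, -0.24 and -0.07 in the 3 comparisons.

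Some signs changed. Between semaglutide + ketone ester and semaglutide, mt-Nd2, which had passed the test, was -0.054 under quantile normalization (adjusted p = 0.61, limma). The others that changed sign had not passed. In that comparison mt-Nd3 was 0.27 with edgeR and with DESeq2 and ran from -0.89 to 0.52 without each mouse. Against vehicle it ran from -0.62 to 0.79, and mt-Nd4l from -0.56 to 0.062. Without each mouse, the log2 ratio of mt-Nd4l to mt-Nd4 ran from -0.18 to 0.36 between semaglutide + ketone ester and semaglutide and from -0.33 to 0.20 against vehicle. The ratio of mt-Nd6 to mt-Nd5 kept its sign in all 3 comparisons. The causes were not tested. No paired analysis was possible because the groups share no mouse numbers. Wide intervals limit what can be said of mt-Nd3, mt-Nd4l and mt-Nd6, and not only with the group of 3 mice. Their standard errors were 0.62, 0.23 and 0.21 in semaglutide against vehicle. In the comparisons with the group of 3 they were 0.71, 0.27 and 0.25.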
